A study of Mus musculus with 6 samples.

Results

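The 45 genes described here belong to the type I interferon response, and their RNA was measured by RNA-seq in NOR-10 cells, a mouse line labelled as skeletal muscle fibroblasts. They were taken by gene symbol from a table of 34745 genes, all 45 were found in it, and all 45 had enough counts to be tested. By role they were split into 6 sensors and sensing adaptors of foreign or misplaced nucleic acid, 5 transcription factors of the STAT and IRF families, and 34 effectors. The control group received PBS, a salt buffer, and the D-gal group received D-galactose, a sugar used to bring on cell senescence, at 20 mg/mL for 3 days. Each group had 3 libraries of the one cell line, and neither group carries a genetic change in the labels. The labels do not state whether the replicates came from separate cultures, so the p-values measure only the spread between these samples, which may be technical.

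In the interferon response, sensors such as RIG-I (Ddx58), MDA5 (Ifih1) and cGAS (Mb21d1) detect RNA or DNA in the cytoplasm and, through adaptors such as STING (Tmem173), switch on the factors IRF3 and IRF7, which drive the genes of the type I interferons. Secreted interferon binds its receptor, the kinases JAK1 and TYK2 activate STAT proteins such as STAT2, and a complex of these with IRF9 enters the nucleus. It binds the interferon-stimulated response element in the promoters of effector genes, whose products block translation, cut viral RNA or tag proteins. Fibroblasts carry the receptor and are known as a cell type that both makes and answers interferon beta.

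Counts per library totalled 16876087 to 20830349 in the control group and 13759108 to 15157064 in the D-gal group. Mitochondrial genes held 4.26% to 4.44% of the counts in control and 4.87% to 4.98% in D-gal libraries, and the part of this difference in the results was not tested. Of the 9 fibroblast markers, 8 passed the filter and Lum had at most 1 count. Their summed level was 7143 to 7347 CPM (counts scaled to the normalized library size) in control and 4687 to 4813 CPM in D-gal libraries. Of these markers, 6 were lower and 1 was higher. Of the 6 muscle markers, which summed to 3.01 to 3.59 CPM in control and 1.74 to 2.02 CPM in D-gal libraries, Pax7, Myf5 and Myod1 were at 0 in every library, Myog and Ckm had at most 7 counts, and Des had 51 to 67 counts in control and 26 to 27 in D-gal libraries and was lower (log2 fold change -0.78, adjusted p = 0.00898, edgeR). Of the 8 leukocyte markers, which 9 identifiers represent, the summed level was 27.2 to 82.1 CPM in control and 42.6 to 47.9 CPM in D-gal libraries. The highest value belonged to control replicate 1, where Lyz2 had 627 counts, against 114 and 86 in the other control libraries, and Csf1r had 141, against 38 and 16. Cd14 was the 1 leukocyte marker past the test, with 588, 443 and 287 counts in control and 499, 532 and 541 in D-gal libraries, and it was higher (log2 fold change 0.62, adjusted p = 0.0329, edgeR). The defining leukocyte marker Ptprc had at most 13 counts in any library, and the part of these markers in the results was not tested. The 5 endothelial markers summed to 4.52 to 5.40 CPM in control and 3.08 to 3.38 CPM in D-gal libraries, with Cdh5 and Emcn at or near 0. Tek was the 1 endothelial marker past the test, with 45, 28 and 28 counts in control and 11, 13 and 15 in D-gal libraries. The level of Tek was lower (log2 fold change -1.02, adjusted p = 0.0342, edgeR). In bulk samples, fewer cells of a type and less RNA per cell cannot be told apart.

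Most of the interferon response genes that differed were higher in the D-gal group, but by modest amounts. Expression was compared with edgeR's quasi-likelihood test, adjusted by the Benjamini-Hochberg method over 13407 genes. At an adjusted p under 0.05, 20 of the 45 genes were higher (44.4%, where 16.9% of all genes tested were) and 1 was lower (2.22%, where 17.8% of all were). That made 21 called genes, or 46.7%, beside 34.8% of all genes tested, and 24 did not pass. At the thresholds of the study, which add a minimal log2 fold change (1 in either direction), 2 of the 45 were differentially expressed, and 4.21% of all genes were. These were Ifi44, higher, and Oas2, lower. In 26 genes every D-gal library lay above every control library, in 3 they all lay below, and in 16 the groups overlapped; groups did not overlap in 49.1% of all genes tested. The median log2 fold change of the 45 was 0.25, against 0.0036 for all genes, and 34 were positive and 11 negative. Without control replicate 1, the library with the most leukocyte marker counts, 19 genes were higher and 1 lower. The part of the leukocyte markers in these results was not tested by leaving out that library.

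The shift was present in each D-gal library but was not the same size in all. Each of the 45 genes was set against its own control mean on the log2 scale. Their median was 0.34, 0.24 and 0.15 in D-gal replicates 1, 2 and 3, where that of all genes tested was 0.0075, 0.0062 and 0.0052. Across the control replicates the median of the 45 lay between -0.0077 and 0.011. The control libraries themselves set the control mean, which holds their medians close to it, so this range does not measure replicate spread. In D-gal replicate 1, 31 genes lay above the highest control value and 5 below the lowest. The corresponding numbers were 30 and 9 in replicate 2 and 27 and 8 in replicate 3. The same numbers were not counted over all genes tested, so they are given without a background. Without D-gal replicate 1 the median log2 fold change was 0.20.

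**Figure D1:**
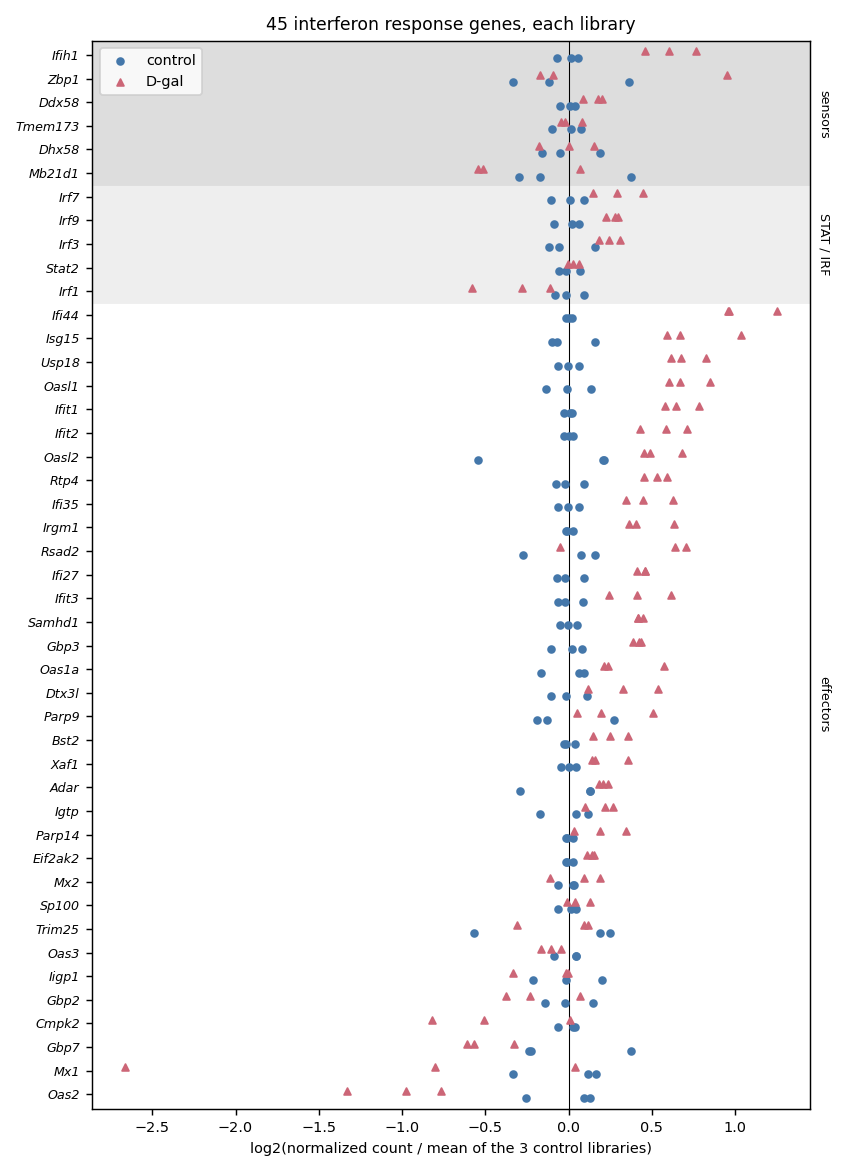
Each row is 1 of the 45 genes and each point 1 library (circles control, triangles D-gal, n = 3 each), placed by its log2 ratio of normalized count to the mean of the 3 control libraries. In most effector rows the triangles sit to the right of the circles, most of all in Ifi44, and in Oas2, at the bottom, to the left.

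The promoters of these genes are shown first, because the response element in them is what the interferon factors bind. RefSeq windows from 250 bases before to 50 bases after the annotated start (GRCm38.p6) were at hand for 33 of the 45 genes, as 40 windows. Those of Dhx58, Zbp1, Tmem173, Oas2, Mx1, Mx2, Usp18, Parp9, Parp14, Iigp1, Rtp4 and Ifi27 were not in the table used. The element was searched as GAAANNGAAA on either strand, overlapping matches included. It occurred in 16 of the 33 genes, while 3.44% of all 32851 windows and 3.71% of the 9734 tested genes with a window held it. By role, 2 of 3 sensors, 1 of 5 factors and 13 of 25 effectors had a match. A match was present in 9 of the 17 higher genes and in 7 of the 16 genes that did not pass. The gamma-activated site, an element of the response to interferon gamma, was searched as TTCNNNGAA, and occurred in 10 of the 33 genes (5 of the 17 higher, 5 of the 16 not past), in 8.3% of all windows and in 8.39% of tested genes. A match is a description of letters and not a shown binding site, and genes without one, such as Ifi44, lack only these letters in this window.

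Promoter stretches of 4 genes that were higher under D-gal are printed here with 5 of genes that did not pass the test, so that the elements can be seen. Of the 9 higher genes with a match, 3 (Ddx58, Ifih1 and Eif2ak2, not printed) had 1 match and 6 had more, and of the 7 that did not pass, 6 had 1 match and 1 (Oas1a) had more. This difference was not tested. The stretches are written 5′ to 3′ on the strand of the gene, the capitals mark bases of a response element match, and no gene of GENCODE M21 covers any of them.
Ifit1: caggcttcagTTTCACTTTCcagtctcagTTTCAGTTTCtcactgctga
Isg15: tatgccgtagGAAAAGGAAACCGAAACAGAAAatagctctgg
Gbp3: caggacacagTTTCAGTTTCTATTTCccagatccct
Bst2: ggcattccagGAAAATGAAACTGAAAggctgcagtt
Stat2: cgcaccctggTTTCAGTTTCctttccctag
Gbp7: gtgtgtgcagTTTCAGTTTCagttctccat
Oas3: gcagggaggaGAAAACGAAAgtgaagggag
Rsad2: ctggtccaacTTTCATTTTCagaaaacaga
Oas1a: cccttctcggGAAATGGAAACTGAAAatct
The Ifit1 stretch lies at chr19:34640775-34640823 on the plus strand and holds 2 separate matches, from 104 to 76 bases before the start. Isg15 (chr4:156200865-156200906, minus strand) has 3 overlapping matches, 78 to 57 bases before the start. Overlapping pairs were found in Gbp3 (chr3:142559989-142560024, plus strand, 45 to 30 bases before) and Bst2 (chr8:71537577-71537612, minus strand, 130 to 115 bases before). Of the genes that did not pass, Oas1a (chr5:120907526-120907555, minus strand) also has an overlapping pair, 20 to 5 bases before the start. The others have a single match: Stat2 is at chr10:128270266-128270295 (plus strand), Gbp7 at chr3:142530273-142530302 (plus strand), Oas3 at chr5:120777715-120777744 (minus strand) and Rsad2 at chr12:26456553-26456582 (minus strand).

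**Figure D2:**
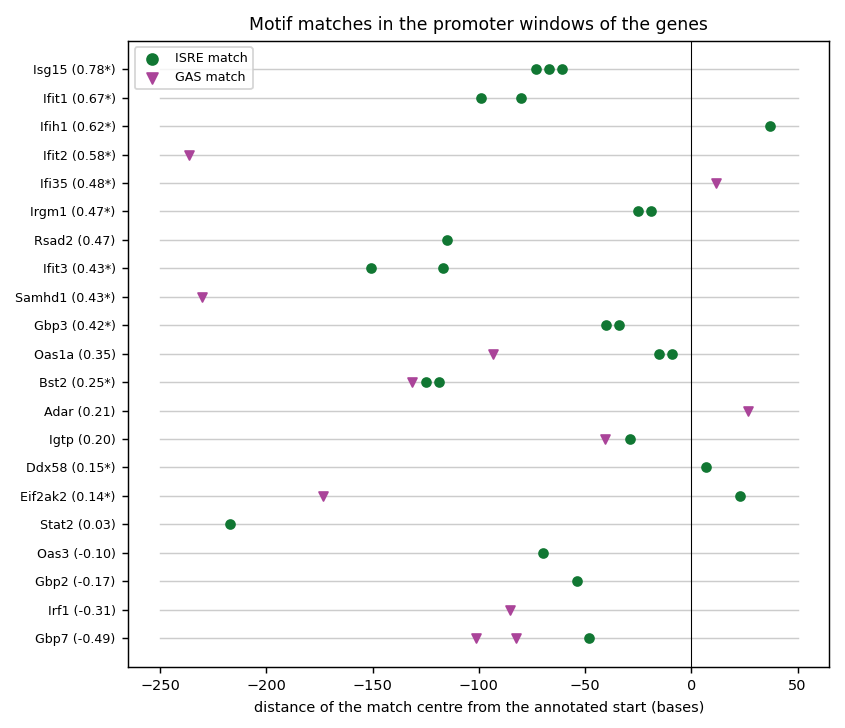
Each line is the window of 1 gene with a match, ordered by log2 fold change (in brackets, an asterisk for an adjusted p under 0.05), and the horizontal axis is the distance of the match centre from the annotated start in bases. Circles mark the response element, found in 16 genes, and triangles the gamma-activated site, found in 10 genes; genes with and without an asterisk carry both kinds.

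Among the sensors, both RNA helicases that signal on their own were higher in the D-gal group. They were 2 of the 6 sensors and adaptors (33.3%, where 16.9% of all genes tested were higher). Ifih1 (chromosome 2, 62595798 to 62646255, minus strand, in GRCm38), which encodes MDA5, a sensor of long double-stranded RNA, had normalized counts of 461, 489.6 and 503 in control and 824, 735 and 666 in D-gal libraries. All D-gal libraries lay above all control libraries, with a log2 fold change of 0.62 (SE, its standard error, 0.08, adjusted p = 0.00104, edgeR), a 1.53-fold level. Ddx58, which encodes RIG-I, a sensor of RNA ends with a triphosphate, had 2135, 2089 and 2002 normalized counts in control and 2385, 2342 and 2201 in D-gal libraries. Its groups did not overlap, but the difference was small, a log2 fold change of 0.15 (SE 0.04, adjusted p = 0.0289, edgeR), and the adjusted p was 0.0658 to 0.0911 without control replicate 2 or 3 or D-gal replicate 1 or 2. Dhx58, the helicase LGP2, which modulates the other two, had 344, 291 and 269.7 normalized counts in control and 336, 266 and 302 in D-gal libraries. Its groups overlapped, and the log2 fold change was -0.0028 (95% confidence interval -0.28 to 0.28).

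The DNA sensing genes did not pass the test. Mb21d1, the DNA sensor cGAS, had 266, 244 and 389 normalized counts in control and 314, 205 and 209.7 in D-gal libraries, and the groups overlapped (log2 fold change -0.30, interval -0.80 to 0.21). Tmem173, its adaptor STING, had 772, 685 and 740.3 normalized counts in control and 708, 721 and 775 in D-gal libraries. Its log2 fold change was 0.0044, and the interval, -0.15 to 0.16, was narrow beside that of cGAS. Zbp1, a sensor of left-handed nucleic acid, was near the lowest level of all 45 genes, with 26.1, 18.8 and 16.2 normalized counts in control and 19.1, 39.3 and 18.1 in D-gal libraries. One D-gal library, replicate 2, was higher than the rest, and the interval of the log2 fold change ran from -0.52 to 1.17.

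Of the STAT and IRF factors, Irf9 was the 1 gene of 5 that rose (20%, near the 16.9% of all genes tested that were higher). The count was 2 without control replicate 1, where Irf3 was added, or without D-gal replicate 3 or with thinned counts, where Irf7 was added, and 3 in both limma fits. Without D-gal replicate 2, Irf1 was past the test as lower (log2 fold change -0.42, adjusted p = 0.0460, edgeR). Irf9 encodes the DNA-binding part of the interferon-activated complex, and had 851, 916 and 945 normalized counts in control and 1111, 1055 and 1095 in D-gal libraries. Its groups did not overlap, and the log2 fold change was 0.27 (SE 0.05, adjusted p = 0.00715, edgeR); 123 bases of its exons are shared with Rnf31 on the same strand. Its partner Stat2 had 2134, 2264 and 2074 normalized counts in control and 2198, 2151 and 2256 in D-gal libraries. The values of Stat2 were mixed, with a log2 fold change of 0.03 (interval -0.07 to 0.13).

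The other factors, Irf3, Irf7 and Irf1, had groups that did not overlap without passing the adjusted p. Groups did not overlap in 49.1% of all genes tested. Irf3, which responds first to the sensors, had 589, 486 and 506 normalized counts in control and 597, 622 and 652 in D-gal libraries (log2 fold change 0.24, adjusted p = 0.0555, edgeR). Irf7, which amplifies the response, had 261, 276 and 240.4 in control and 352, 317 and 287 in D-gal libraries (log2 fold change 0.30, adjusted p = 0.0524, edgeR). Irf1, a factor shared with the response to interferon gamma, had 265, 234 and 245 normalized counts in control and 204, 229 and 166 in D-gal libraries. It was the one factor with lower D-gal values, at a log2 fold change of -0.31 (adjusted p = 0.0962, edgeR). All of Irf1, Irf3 and Irf7 have exons that overlap a gene of the opposite strand, and whether the counting used strand is not given in the sources used here.

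Effectors made up 34 of the 45 genes, and most of the higher ones. Of the 34, 17 were higher (50%, where 16.9% of all genes tested were). Only 1 was lower (2.94%, where 17.8% of all were), and 16 did not pass. The median log2 fold change of the effectors was 0.30, compared with 0.24 for the 5 factors and 0.08 for the 6 sensors. For each gene whose groups did not overlap, the two-sided exact permutation test gave p = 0.1, the smallest that 3 libraries against 3 allow.

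**Figure D3:**
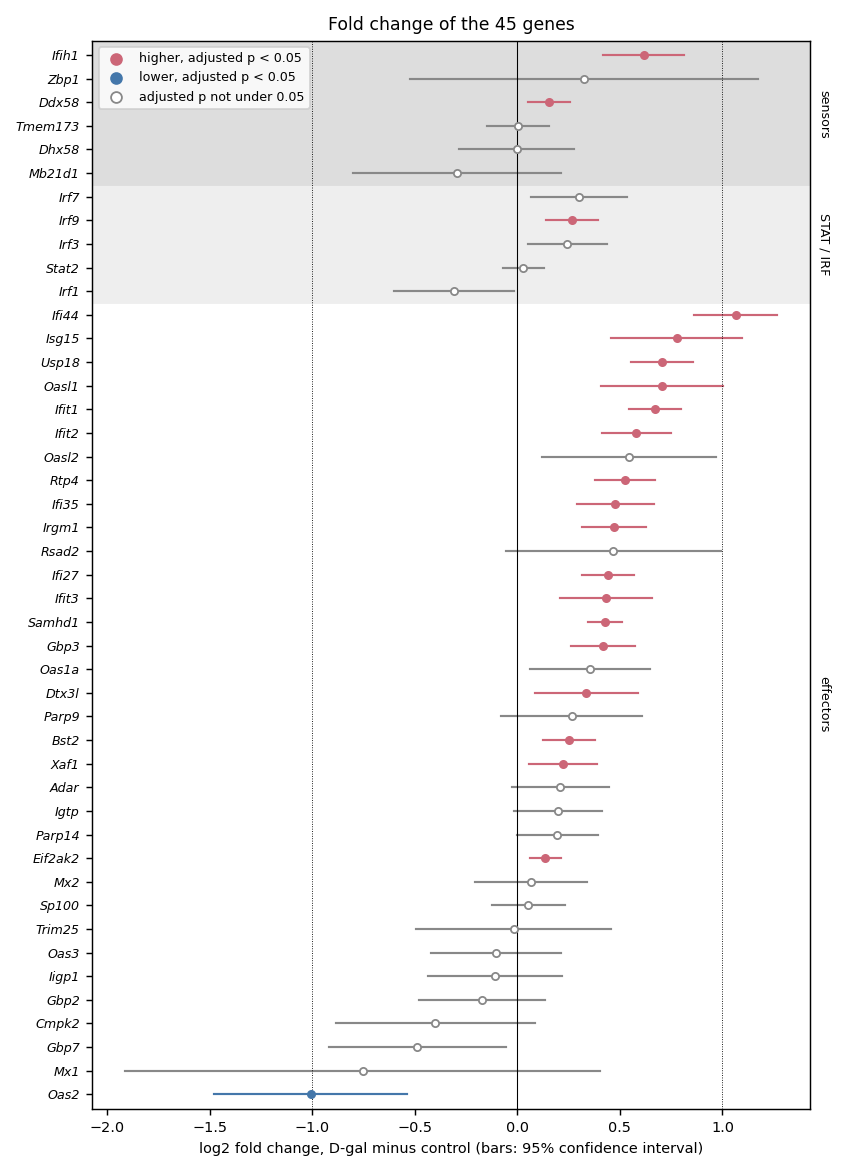
Points are the log2 fold changes (D-gal minus control) of the 45 genes and bars their 95% confidence intervals, by role; filled points had an adjusted p under 0.05 and dotted lines mark a log2 fold change of 1 in size. Only the points of Ifi44, at 1.06, and Oas2, at -1.01, lie on or past the dotted lines, and the widest bar is that of Mx1.

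All 4 genes of the Ifit and Ifi44 group rose (100%, where 16.9% of all genes tested did), with a median log2 fold change of 0.63. Ifi44 (ENSMUSG00000028037, chromosome 3, 151730922 to 151749960, minus strand), which encodes an interferon-induced cytoplasmic protein with antiviral activity, had 415, 420.3 and 425 normalized counts in control and 1001, 815 and 821 in D-gal libraries. Its control libraries were nearly equal and every D-gal library was far above them. The level was 2.09-fold, with a log2 fold change of 1.06 (SE 0.09, adjusted p = 8.35e-05, edgeR), the largest rise of the 45; without D-gal replicate 1 it was 0.96. Ifit1 (ENSMUSG00000034459, chromosome 19, 34640871 to 34650009, plus strand), whose protein binds viral RNA lacking a methylated cap and blocks its translation, had 1199.9, 1226 and 1238 normalized counts in control and 2099, 1909.7 and 1823 in D-gal libraries. The groups were far apart, with a log2 fold change of 0.67 (SE 0.06, adjusted p = 8.73e-05, edgeR). Ifit1 shares 10.5% of its 31-base words with other genes. Ifit2, which like Ifit1 acts on translation, had 829.6, 801 and 817 normalized counts in control and 1224, 1335 and 1096 in D-gal libraries. Its log2 fold change was 0.58 (SE 0.07, adjusted p = 0.000641, edgeR), with no overlap. Ifit3, a partner protein of Ifit1, had 520.2, 482 and 469 in control and 749.7, 653 and 579.6 in D-gal libraries, a log2 fold change of 0.43 (SE 0.10, adjusted p = 0.0107, edgeR). It shares 61.8% of its 31-base words with Ifit3b, so its own count is uncertain.

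The Oas family did not move one way: 1 of 5 was higher, 1 lower and 3 did not pass. The higher and the lower share were each 20%, near the 16.9% and 17.8% of all genes tested. Oas2 (ENSMUSG00000032690, chromosome 5, 120730333 to 120749853, minus strand) encodes an oligoadenylate synthetase, an enzyme that answers double-stranded RNA by making the activator of RNase L. It had 73.2, 75.1 and 57.6 normalized counts in control and 40.4, 27.3 and 34.9 in D-gal libraries. No D-gal value reached the lowest control value, and the level was 2.01-fold lower in D-gal, with a log2 fold change of -1.01 (SE 0.20, interval -1.48 to -0.54, adjusted p = 0.00658, edgeR). The counts were low, and leaving out control replicate 1 or 2 or D-gal replicate 2 gave -0.96, -0.94 and -0.87, below the study's fold threshold but past the adjusted p. Oasl1, an Oas-like protein without synthetase activity that represses translation of Irf7, had 94.1, 84.9 and 77.8 normalized counts in control and 136, 129.9 and 154 in D-gal libraries. Its groups did not overlap, with a log2 fold change of 0.71 (SE 0.13, adjusted p = 0.00415, edgeR). Of the others, Oasl2 had a log2 fold change of 0.54 (adjusted p = 0.0517, edgeR), and it was called in 8 of 14 alternatives. Its control libraries were uneven, with 456 normalized counts in replicate 2 beside 768 and 769 in the others, and without that replicate the log2 fold change was 0.33 (adjusted p = 0.0224, edgeR). Oas1a, which shares 68.8% of its words with other genes, mostly Oas1g, was at 0.35 (adjusted p = 0.0634, edgeR), and Oas3 at -0.10.

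In the ISG15 system, the ubiquitin-like modifier and its protease were higher. They were 2 of 3 genes (66.7%, where 16.9% of all genes tested were higher). Isg15 (ENSMUSG00000035692, chromosome 4, 156199424 to 156200818, minus strand), the modifier that is attached to proteins during the response, had 169.9, 199 and 167 normalized counts in control and 366, 269 and 284 in D-gal libraries. All D-gal libraries were above all control libraries, at a log2 fold change of 0.78 (SE 0.14, adjusted p = 0.00364, edgeR); 12.8% of its words occur in other genes. Usp18, the protease that removes ISG15 and also dampens the receptor, had 816.5, 783 and 855 normalized counts in control and 1447, 1251 and 1305 in D-gal libraries. The groups were well apart, at a log2 fold change of 0.71 (SE 0.07, adjusted p = 0.000149, edgeR). Trim25, a ubiquitin ligase that acts on RIG-I, was uneven in control, with 877 normalized counts in replicate 1 and 1479 and 1542 in the others, and its log2 fold change was -0.02 (interval -0.50 to 0.46).

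The Mx, Rsad2 and Cmpk2 genes, which are often used as readouts of interferon, did not pass the test, and the groups of all 4 overlapped. Of all genes tested, 34.8% passed, and groups did not overlap in 49.1%. Rsad2 (viperin), whose product makes a chain-terminating nucleotide, had 59.3, 62.8 and 46.5 normalized counts in control and 87.5, 91.7 and 54.2 in D-gal libraries. D-gal replicates 1 and 2 were above all controls and replicate 3 was among them (log2 fold change 0.47, adjusted p = 0.15, edgeR). Without D-gal replicate 3 the value of Rsad2 was 0.67 (adjusted p = 0.0352, edgeR). Cmpk2, a nucleotide kinase whose gene lies beside Rsad2, had 78.4, 79.2 and 73.7 normalized counts in control and 77.4, 43.7 and 54.2 in D-gal libraries (log2 fold change -0.40, adjusted p = 0.180, edgeR), and without D-gal replicate 1 the value was -0.66 (adjusted p = 0.0309, edgeR). Mx1, a GTPase that traps viral nucleocapsids, had only 12 to 21 raw counts in control and 14, 8 and 2 in D-gal libraries. The log2 fold change was -0.75, and the interval ran from -1.91 to 0.40. Mx2, which GENCODE M21 annotates as a polymorphic pseudogene, was at 0.06 (interval -0.21 to 0.34).

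Of the 6 interferon-induced GTPases, 2 rose and 4 did not pass the test. The 2 made 33.3%, where 16.9% of all genes tested were higher and 34.8% were called in either direction. Irgm1, a regulator of autophagy and of the other IRG proteins, had 2896, 2912 and 2993 normalized counts in control and 4554, 3777 and 3879 in D-gal libraries. The groups did not overlap, and D-gal replicate 1 was the highest (log2 fold change 0.47, SE 0.07, adjusted p = 0.00124, edgeR). Gbp3, a guanylate-binding protein, had 457, 401 and 438 normalized counts in control and 585, 566 and 578 in D-gal libraries. Its D-gal libraries were close together, at a log2 fold change of 0.42 (SE 0.07, adjusted p = 0.00239, edgeR). The neighbouring Gbp7 had groups apart in the other direction, with a log2 fold change of -0.49 (adjusted p = 0.0784, edgeR), and it shares 14.7% of its words with other genes. Gbp2 (-0.17), Igtp (0.20) and Iigp1 (-0.11) overlapped between the groups.

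Among the genes that respond to double-stranded RNA, Eif2ak2 encodes PKR, the kinase that stops translation by phosphorylating eIF2 alpha. It had 2443, 2522 and 2452 normalized counts in control and 2753, 2671 and 2728 in D-gal libraries. The groups were tight and did not overlap, and the log2 fold change was 0.14 (SE 0.03, adjusted p = 0.0152, edgeR). Its adjusted p was 0.0549 without control replicate 1 and 0.0537 without control replicate 3. Adar, which edits adenosine in double-stranded RNA, was at 0.21 (adjusted p = 0.154, edgeR), with an uneven control group of 1435, 1916 and 1918 normalized counts. Dtx3l, a ubiquitin ligase that pairs with Parp9, had 559, 514 and 483 normalized counts in control and 752, 649.7 and 561 in D-gal libraries. Its groups nearly touched (log2 fold change 0.34, SE 0.11, adjusted p = 0.0456, edgeR), and without D-gal replicate 1 the value was 0.22 (adjusted p = 0.127, edgeR). The call was also lost without D-gal replicate 2 or any control replicate. The exons of Dtx3l and Parp9 overlap by 458 bases on opposite strands. Parp9 (0.26) and Parp14 (0.19), both ADP-ribosyltransferase family members, did not pass.

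The remaining 7 effectors had 6 genes that rose (85.7%, where 16.9% of all genes tested did). In all 6 the groups did not overlap, as in 49.1% of all genes tested. Samhd1, a phosphohydrolase that depletes the deoxynucleotides a virus needs, had 3669, 3420.0 and 3533 normalized counts in control and 4728, 4823 and 4727 in D-gal libraries. Its D-gal libraries were almost equal, at a log2 fold change of 0.43 (SE 0.04, adjusted p = 9.03e-05, edgeR). Rtp4, an inhibitor of viral replication, had 629, 707.5 and 654 in control and 958, 908 and 999 in D-gal libraries (log2 fold change 0.52, SE 0.06, adjusted p = 0.000566, edgeR), with 12.5% of its words shared with an overlapping transcript. Ifi35, a protein that joins a complex with other interferon-induced proteins, had 572, 598 and 546 normalized counts in control and 884, 781 and 725 in D-gal libraries. It rose by a log2 fold change of 0.48 (SE 0.08, adjusted p = 0.00285, edgeR). Ifi27, a small hydrophobic membrane protein, had 860.1, 963 and 889.8 in control and 1201, 1243 and 1245 in D-gal libraries (log2 fold change 0.44, SE 0.05, adjusted p = 0.000598, edgeR).

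Bst2 and Xaf1 rose less. Bst2 encodes tetherin, which holds budding virus at the cell surface, and had 2158, 2078 and 2059 normalized counts in control and 2684, 2497 and 2319 in D-gal libraries. The groups did not overlap (log2 fold change 0.25, SE 0.06, adjusted p = 0.00904, edgeR). Xaf1, a pro-apoptotic protein that binds XIAP, had 594, 610.4 and 575 in control and 761, 654 and 663 in D-gal libraries. D-gal replicate 1 was the highest, and the log2 fold change was 0.22 (SE 0.07, adjusted p = 0.0448, edgeR); without that replicate it was 0.15 (adjusted p = 0.123), and the adjusted p was over 0.05 in 9 of 14 alternatives, among them those without D-gal replicate 3 or any control replicate. Sp100, a nuclear body protein, had a log2 fold change of 0.05.

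Compared per exon length, as CPM per kilobase of exon, the levels of the 45 genes spanned from 0.24 ± 0.043 (Mx1) to 138 ± 3.48 (Bst2) in the control group (SD, n = 3). Bst2 stood apart at the top of both groups, at 165 ± 12.0 in D-gal. Next in control were Ifi27 (36.7 ± 2.15), Irgm1 (30.1 ± 0.53), Eif2ak2 (28.8 ± 0.50) and Ifit1 (27.4 ± 0.44). In D-gal, Ifit1 moved from place 5 to 3 at 43.6 ± 3.16, which was within the spread of Irgm1 at 41.7 ± 4.33. Isg15 went from 14.1 ± 1.41 (place 14) to 24.1 ± 4.11 (place 10), and Usp18 from 17.5 ± 0.78 to 28.5 ± 2.15 (place 11 to 7). Ifi44 went from 4.08 ± 0.051 to 8.53 ± 1.03 (place 31 to 26). Mx1, Zbp1 (0.34 ± 0.087) and Oas3 (0.57 ± 0.029) held the last places in control.

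**Figure D4:**
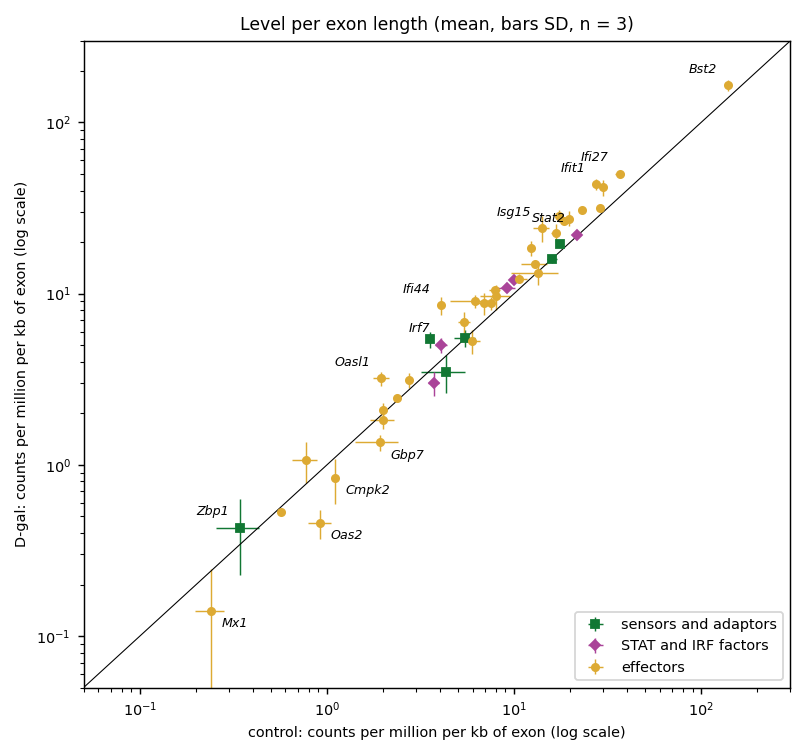
The level of each of the 45 genes in the control group (horizontal) and the D-gal group (vertical), in CPM per kilobase of exon on log scales, with means and SD bars (n = 3). Bst2 lies at the upper right at 138 and 165, Ifi44 and Isg15 lie above the line of equality, and Oas2 and Mx1 lie below it, Mx1 with a wide bar.

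Few genes of the other steps of the pathway were higher. Transcripts of the interferons themselves were near 0: all 11 ligand genes were in the table, none had enough counts for the test, and the largest count was 5, in Ifnb1 (1, 5 and 0 counts in control and 4, 2 and 0 in D-gal libraries) and in Ifng. Of the 12 receptors, kinases and inhibitors tested, 1 was higher (8.33%, where 16.9% of all genes were) and 5 were lower (41.7%, where 17.8% of all were), and their median log2 fold change was -0.16. Socs3, a feedback inhibitor of JAK kinases, had 262, 274 and 265 normalized counts in control and 206, 170.3 and 192 in D-gal libraries. All D-gal libraries were lower, with a log2 fold change of -0.50 (SE 0.10, adjusted p = 0.00558, edgeR). Its relative Socs1 had 79.3, 65.3 and 56.6 in control and 43.8, 42.6 and 43.4 in D-gal libraries, a log2 fold change of -0.63 (adjusted p = 0.0272, edgeR). The receptor chains were also lower, Ifnar2, of the type I receptor, by a log2 fold change of -0.21, and Ifngr1 and Ifngr2, of the type II receptor, by -0.17 and -0.28 (adjusted p = 0.0270, 0.0414 and 0.0147, edgeR). Pias1, an inhibitor of STAT signalling, was higher, at 0.21 (adjusted p = 0.0137, edgeR). The number of lower genes moved with the choice of libraries: it was 2 without control replicate 1 or 2, 1 without D-gal replicate 2, 3 without D-gal replicate 3, 2 with DESeq2 and 2 with the replicate block. Socs3 and Pias1 kept their calls in all 14 alternatives, whereas Socs1 lost it in 7, Ifnar2 in 8, Ifngr1 in 9 and Ifngr2 in 1. Ifnar1 was at -0.16 (adjusted p = 0.0656, edgeR).

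Of 14 sensing adaptors, kinases and nucleases, 13 were tested, 1 was higher (7.69%) and 2 were lower (15.4%), the latter near the 17.8% of all genes. Tlr3, the endosomal sensor of double-stranded RNA, was at 0.36 (adjusted p = 0.0159, edgeR), and the adjusted p was 0.0513 without control replicate 1. Tbk1, the kinase that activates IRF3, fell by a log2 fold change of -0.24 (SE 0.04, adjusted p = 0.00225, edgeR), from 1919, 1952 and 1834 to 1596, 1618 and 1624 normalized counts. Rnaseh2b, a subunit of the enzyme that removes RNA from DNA hybrids, was lower, at -0.45 (adjusted p = 0.0127, edgeR); it was named after its value was seen. The call of Tlr3 was also lost with DESeq2, and with the replicate block 4 genes were lower.

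**Figure D5:**
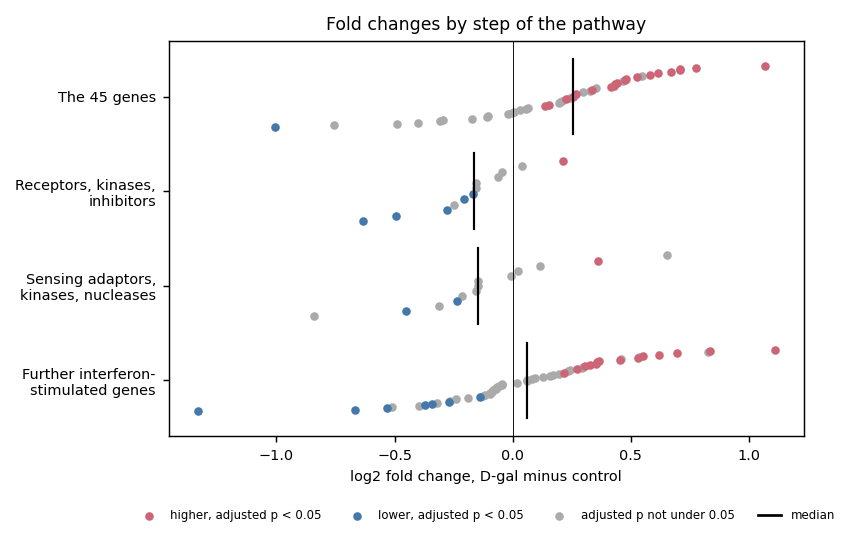
Each point is a gene, placed by its log2 fold change (D-gal minus control), in rows for the 45 genes, the receptors with kinases and inhibitors, the sensing adaptors with kinases and nucleases, and further interferon-stimulated genes; black bars are medians. The median of the 45 genes is at 0.25 and that of the further interferon-stimulated genes at 0.06, while the receptor row lies at -0.16.

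A second list of interferon-stimulated genes, with 58 symbols and none of the 45, had 57 in the table and 55 identifiers tested. Of these 14 were higher (25.5%) and 7 lower (12.7%), with a median log2 fold change of 0.06, so their shares lay closer to the background of all genes than those of the 45. The number of lower genes ran from 4 to 8 over the alternatives. The 5 with the smallest p-values were Lgals3bp, a secreted glycoprotein (log2 fold change 0.62), Parp10 (0.83, with 205 exon bases shared with Plec), Ifitm3, a membrane protein that blocks viral entry (0.31, with 20.5% of its words shared), Znfx1, a helicase sensor of RNA (0.37), and Slfn9 (-0.34, with 23.6% of its words shared). Their largest adjusted p was 0.00168 (edgeR), and each kept its call in all 14 alternatives. Lgals3bp had 4875, 5023 and 4867 normalized counts in control and 7520.2, 7899 and 7258 in D-gal libraries.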

How the data were processed

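RNA-seq of NOR-10 cells in 3 control (PBS) and 3 D-gal libraries was analysed, grouped by the labels. The deposited counts are reads per gene that the authors left without normalization. The deposited FPKM values were computed by the authors from counts and gene length, and were used only as an alternative. Reads were quality-checked (FastQC) and trimmed (Trimmomatic) by the authors. The submitters' processing notes name HISAT2 2.0.4, with no role. Counting tool, strand and annotation are not given in the sources used here. The methods name a small RNA kit and the labels an RNA-seq kit. Dose and duration come from the methods.

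The 45 genes and the other lists were chosen with earlier results of these data known. Counts were fitted with edgeR 4.0.16 (R 4.3.3) using TMM, filterByExpr and the quasi-likelihood test, with no covariate, and p-values were adjusted by the Benjamini-Hochberg method over 13407 genes. Genes were called at an adjusted p under 0.05, and as differentially expressed also at a log2 fold change of 1 in size. Normalized counts are counts over the TMM-scaled library size, times its mean over libraries, and CPM use the same library size. For standard errors, log2 fold changes were divided by the square root of F. Levels per exon length and shared 31-base words were computed from GENCODE M21, whose assembly, GRCm38, is that of the deposited coordinates; 37 of the 45 genes have identical ends in both. Replicate pairs differed by more than sampling noise (chi-square over its degrees of freedom, 6.00 to 9.42). Intervals are at 95%. The functions were tested on simulated counts. Values are given for every sensor, factor and called effector, for called ligands, receptors, kinases and inhibitors, and for the 5 further interferon-stimulated genes with the smallest p; other genes were named after their values were seen. Alternatives were DESeq2 1.42.0, RLE factors, no filter, at least 10 counts in every library, a replicate block, each replicate left out, limma 3.58.1 on log2(FPKM + 1) and log2(FPKM + 0.1), an adjusted p under 0.01 and, added after seeing the data, counts thinned to the smallest total. One gene of the pathway lists is not reported here.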

Additional observations from a re-analysis of the deposited data

How the results depend on the processing

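The count of differentially expressed interferon response genes, 2, was 0 with limma on log2(FPKM + 1), where Ifi44 was at 0.90 and Oas2 at -0.25. That scale understates the change of low genes, and 23 of the 45 still had an adjusted p under 0.05 there. With limma on log2(FPKM + 0.1) it was 1, since Oas2 was at -0.76. With 1 library left out the count lay between 1 and 2, and it was 1 without control replicate 1 or 2 or D-gal replicate 1 or 2. The count of lower genes, 1, lay between 1 and 2, with Cmpk2 added without D-gal replicate 1 and Irf1 added without D-gal replicate 2. The count past the adjusted p, 21, ran from 19 to 24 over the alternatives at 0.05 and was 16 at an adjusted p under 0.01. None of the 21 genes changed sign. Of the others, 6 did, and none of these was called in any alternative. With 1 library left out, Dhx58 ran from -0.087 to 0.10, Zbp1 from -0.14 to 0.54, Tmem173 from -0.041 to 0.044, Mx2 from -0.0034 to 0.14, Trim25 from -0.24 to 0.12 and Iigp1 from -0.21 to 0.0040. Dhx58 was also at 0.0275 and 0.0337 with limma at pseudocounts of 1 and 0.1 and at 0.0058 with thinned counts, Tmem173 at -0.0047 with no filter and -0.0085 with thinned counts, and Trim25 at 0.0086 with the replicate block and at 0.041 and 0.046 with limma at pseudocounts of 1 and 0.1. Of the 21 genes, 17 kept the call in all 14 alternatives. The exceptions were Xaf1 (lost in 9), Dtx3l (6), Ddx58 (4) and Eif2ak2 (3), and 9 of the 24 other genes were called in at least 1, most often Oasl2 (8).

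Deviations from the group means of same-numbered libraries correlated by -0.014, -0.0065 and 0.026, and those of differently numbered libraries by -0.035 to 0.043. Deviations within a group of 3 are tied to each other, so these values cannot settle whether replicate numbers pair the libraries. With the replicate block 21 genes passed (20 higher, 1 lower) and 2 were differentially expressed, with Xaf1 lost and Oasl2 gained. With 3 libraries a group, the median standard error of the 45 log2 fold changes was 0.10, the smallest 0.03 and the largest 0.50 (Mx1).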

Other observations

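Within the second list of interferon-stimulated genes, 14 were higher and 7 lower, and the genes named here were chosen after their values were seen (edgeR's quasi-likelihood test, adjusted over all genes). Besides Lgals3bp, Parp10, Ifitm3 and Znfx1, the higher genes were Ifit1bl1 (log2 fold change 1.11), Nlrc5 (0.70), Ifit3b (0.55), Ccl5 (0.53), Trim21 (0.45), Trim30a (0.35), Apol9b (0.35), Tor3a (0.33), Irgm2 (0.27) and Parp11 (0.21). Nlrc5 is a transactivator of MHC class I genes, and Trim21 a cytosolic receptor for antibody. Ifit1bl1 had 33, 40 and 29 counts in control and 43, 76 and 54 in D-gal libraries, and shares 19.3% of its words with other genes, mostly its relatives. Ifit3b shares 55.2% with others, mostly Ifit3, and Apol9b 64.9% with Apol9a, so neither count is its own for certain.

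Besides Slfn9, the lower genes were Ifitm1 (-1.33), an identifier of Gbp6 (-0.67), Gbp9 (-0.53), Ifi203 (-0.37), Ly6e (-0.27) and Lgals9 (-0.14). The called identifier of Gbp6 shares 100% of its words with other genes, so its count is not its own for certain. Another identifier of Gbp6 did not pass (-0.32, adjusted p = 0.215, edgeR), and its groups overlapped. Ifitm1 had 23, 24 and 24 counts in control and 12, 6 and 4 in D-gal libraries, while its relative Ifitm3 was higher and Ifitm2 was at -0.07. Gbp9, at 369, 337 and 340.4 normalized counts in control and 258, 245 and 219 in D-gal libraries, had no overlap between the groups, although it shares 18.3% of its words with other genes. Of these 21 genes, 14 kept the call in all alternatives; Ifi203, Lgals9, Irgm2, Ifitm1, Ccl5, Parp11 and Gbp6 lost it in at least 1. Calls lost without 1 library include those of Ifitm1, Gbp6 and Irgm2 without control replicate 2, of Lgals9 and Ifi203 without control replicate 1, of Ccl5 without control replicate 3 and of Parp11 without D-gal replicate 1.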
